A study of Macaca mulatta with 24 samples.

Results

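The unirradiated colon of the rhesus macaque (Macaca mulatta) is described here from the control animals of a total-body irradiation study, in which colon RNA of 24 animals was measured on one-colour Agilent rhesus expression arrays. The control group was chosen by its sample titles and holds 4 of the 24 samples, with 1 array for each animal. Each control is labelled with a dose of 0 Gy and with day 4. The study's methods describe its animals as young adult males with no disease known beforehand, and name sham-irradiation for those not exposed. No other treatment and no allele is given. No irradiated sample was compared with them. The RNA came from whole gut tissue of a segment about 3 cm long, not pooled between animals, and neither the position along the colon nor the hour of sampling is stated in the sources used here. The sample holds mucosa, muscle wall, vessels, nerves and resident immune cells together, so that fewer cells of a type and less RNA per cell cannot be told apart.

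The colon absorbs salt and water, houses a dense microbiota and keeps it behind a layer of mucus. Its surface is a single sheet of epithelium folded into crypts, where stem cells at the base divide and their daughters mature upwards into absorptive colonocytes, mucus-secreting goblet cells, hormone-secreting enteroendocrine cells and chemosensory tuft cells. Beneath it lie a lamina propria rich in plasma cells, T lymphocytes and macrophages, scattered lymphoid follicles, and a muscle coat with its own nervous system. Unlike the small intestine, the colon has no villi and takes little part in the digestion of fat and sugars.

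Values are log2 of the processed signal minus the 75th percentile of the same array, called the scaled log2 signal, so that 0 is the 75th percentile and 1 unit is a doubling of brightness. They are given in the order of controls 1 to 4, and every ± is the SD over the 4 animals. Unless another probe is named, a value is that of the gene's brightest probe. At 3546 genes with 2 or more probes well above background on 4 of 4 arrays, the second probe was dimmer by a median of 1.39 log2 units. A probe's brightness depends on its sequence as well as on the amount of RNA, so a rank is a rank of probe signal and not of transcripts. The 75th percentile was 558, 756, 750 and 688 intensity units, between 70.4% and 80.0% of the spots were well above background, no spot was saturated, and the arrays correlated over all probes with Pearson's r between 0.973 and 0.983. Probes not well above background had median scaled log2 signals between -7.401 and -6.71, and the lowest signals well above background lay between -6.17 and -5.38. Controls 1 and 2 were scanned on one day and controls 3 and 4 on another, each on a slide of its own.

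The arrays split into the same pairs at Y-linked genes, which matters for reading any difference between the animals. RPS4Y2, a Y-linked copy of a ribosomal protein gene, gave 5.36, 5.10, -3.14 and -3.30. EIF1AY, a Y-linked translation initiation factor, gave 1.80, 1.73, -4.96 and -5.21. At 7 of the 21 probes that the array design describes as Y-linked, controls 1 and 2 both lay over 4-fold above controls 3 and 4, and at 5 of the 21 no array was well above background. One probe of RPS4Y1 gave 4.57, 5.07, -0.35 and 0.066. The brighter probe that stands for that gene gave 7.65, 7.37, 7.92 and 7.83, with controls 3 and 4 slightly higher and no 4-fold gap. The probe that stands for DDX3Y, an RNA helicase gene with a close copy on the X chromosome, gave 2.44, 2.33, 2.99 and 2.90. Controls 3 and 4 were higher there, with no 4-fold gap. Its second probe gave -1.74, -1.95, -2.68 and -2.80, with controls 1 and 2 higher and again no 4-fold gap. Over all 43603 probes, 26 had controls 1 and 2 over 4-fold above controls 3 and 4, and 10 had the opposite. The labels give no sex, and scan day and this split cannot be told apart.

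**Figure D1:**
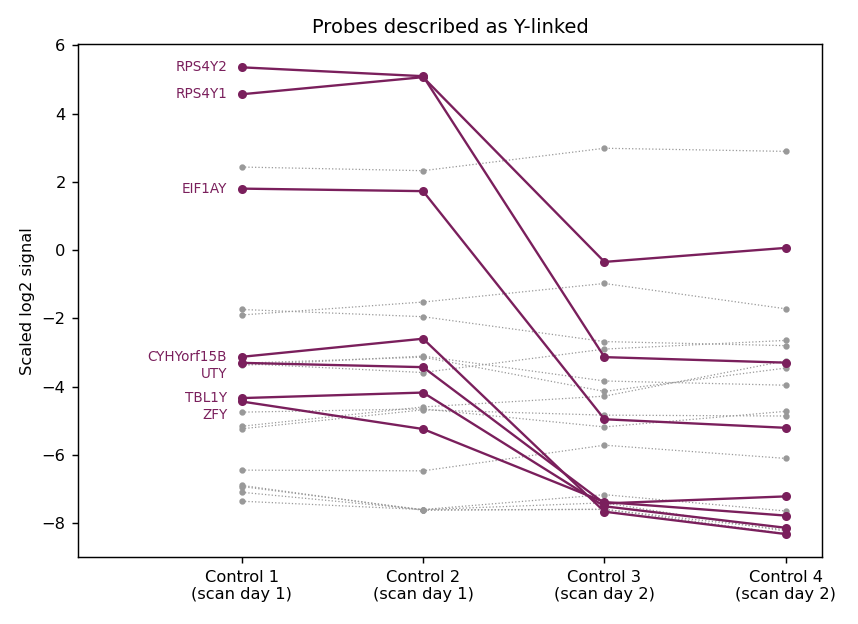
Scaled log2 signal (vertical axis) of the 21 probes described as Y-linked in controls 1 to 4. The 7 probes in purple, labelled by the gene in their description, lie over 4-fold higher in controls 1 and 2 than in controls 3 and 4, and grey dotted lines join the values of the other probes.

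Most genes on the array gave a signal in normal colon. Of 14480 genes with a name, 11155 (77.0%) were well above background on 4 of 4 arrays at the probe that stands for them, the brightest one, and 1550 (10.7%) were above background on none of the 4 at any probe, a count that became 505 with the software's looser detection flag and 2486 when the lowest probe stood for a gene. The median gene had a mean scaled log2 signal of -1.49, with quartiles of -4.07 and 0.84. Genes found on 4 of 4 arrays had a median of -0.43 and those found on none a median of -7.21. Among probes, named or not, 29172 of 43603 (66.9%) were well above background on all arrays and 7549 (17.3%) on none.

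The brightest named genes included those of translation, the mitochondrial genome, iron storage, the cytoskeleton and the epithelial surface. Of the 100 brightest, 38 had the symbol of a ribosomal protein and 5 lay in the mitochondrial genome, against 78 and 11 of all 14480 named genes, and the 20 brightest held 2 of each. The mitochondrial genes COX3 and CYTB, subunits of the respiratory chain, ranked 2 and 10 with means of 9.42 ± 0.024 and 8.69 ± 0.12. FTH1, the ferritin heavy chain that stores iron, ranked 6 at 9.09 ± 0.32. LGALS4, a lectin of the gut epithelium, ranked 7 with 9.10, 8.66, 8.89 and 8.93 in the 4 animals, which differed by less than 1.5-fold. ACTG2, the actin of visceral smooth muscle, gave 8.79, 8.59, 8.01 and 8.38, and MYL6, a light chain of non-sarcomeric myosin, had a mean of 8.57 ± 0.45. TMSB4X, which binds actin monomers, had a mean of 8.26 ± 0.12, and the ribosomal protein genes RPS14 and RPL23A had means of 8.15 ± 0.082 and 8.20, the latter with control 4 missing.

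The other probes of these genes did not always place them so high. Of the 20 brightest genes, 15 had further probes, and at 9 of them the next probe was over 16-fold dimmer. UBE2B, a ubiquitin-conjugating enzyme, ranked first at 9.63, and its other probes had means of -1.55 and -1.94. ZDHHC15, a palmitoyltransferase, had 9.39 at its brightest probe and -4.63 and -7.64 at the others. PDP2, WWP2, FGD4, TTC9C, TNFRSF1B, RAB11FIP1 and LGALS3 likewise had a second probe more than 16-fold below the first, so that their places in the ranking rest on a single probe. The probes of FTH1 (8.40 and 7.28 at the others) and RPS14 (7.82 and 5.48) lay closer together, as did the first 2 of the 3 probes of TASL, an adaptor of endosomal Toll-like receptors, with a mean of 9.31 at the first and 8.59 and -2.04 at the others. Among the 100 brightest probes, 57 had no gene name, so that the ranking of named genes covers part of the bright signal only.

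**Figure D2:**
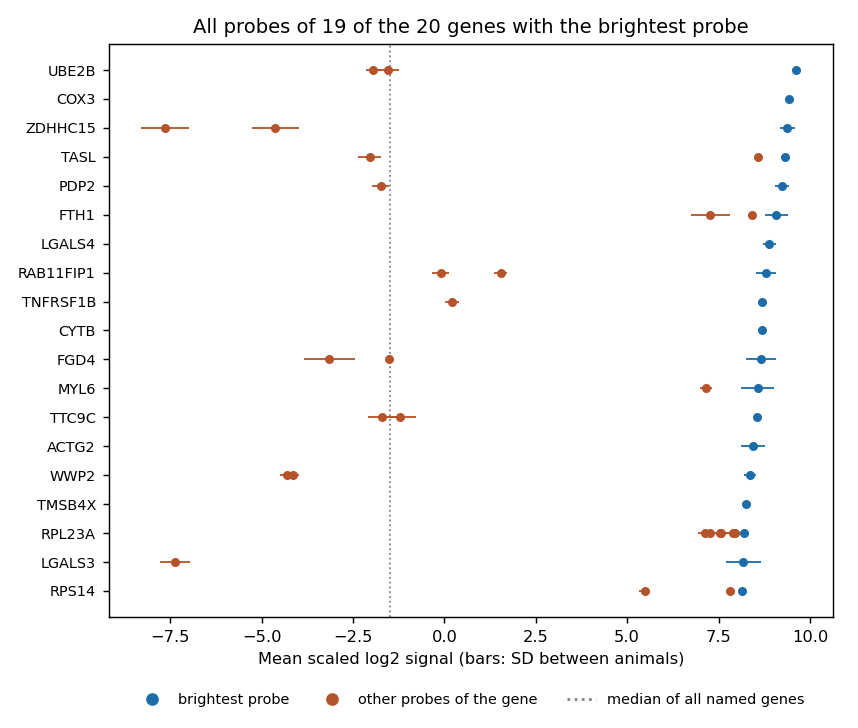
Mean scaled log2 signal (horizontal axis) of every probe of 19 of the 20 genes with the brightest probe; blue marks the brightest probe, orange the other probes of the same gene, and bars the SD between the 4 animals. The second probe of UBE2B, ZDHHC15, PDP2, RAB11FIP1, TNFRSF1B, FGD4, TTC9C, WWP2 and LGALS3 lies over 16-fold below the first.

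Marker genes of the cell types that colon holds were then counted. The lists were chosen with earlier results of these data known, so the counts are a description and no test of the labelled tissue. Over 25 such lists, 165 of 196 measured markers (84.2%) were well above background on all 4 arrays and 9 (4.59%) on none, against 77.0% and 10.7% of all named genes. Over 11 lists of other tissues and gut segments, 31 of 71 markers (43.7%) were found on all arrays and 18 (25.4%) on none. Of striated muscle markers 5 of 6, and of retina markers 0 of 5, were found on all arrays. Later counts of list members are to be read beside the 77.0% of all named genes. Smooth muscle, goblet cells and absorptive colonocytes had the 3 highest list medians, at 6.06, 4.20 and 3.80, and liver, retina and kidney markers were among the lowest, at -5.77, -4.93 and -4.71. The dendritic cell list, of a colon cell type, was also among the lowest, at -4.80. Hindgut position factors were present: CDX2, the homeobox factor that sets intestinal identity, gave 4.08, 3.80, 4.18 and 4.32, CDX1 gave 1.97, 1.99, 1.88 and 2.12, and HOXB13, a homeobox gene of the most distal gut, gave 0.0054, -0.79, 0.83 and 0.54, while HOXD13 was well above background on none of the arrays.

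**Figure D3:**
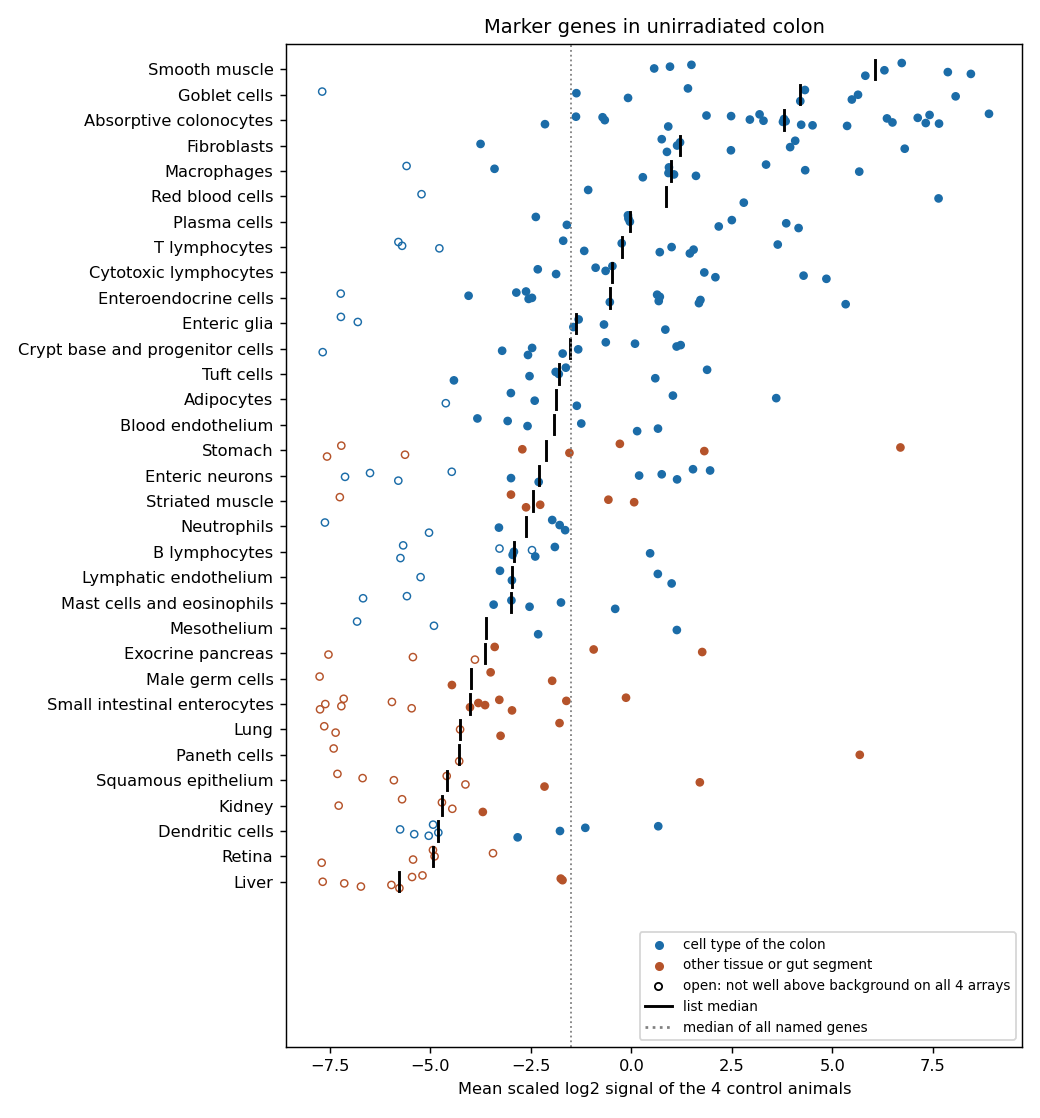
Mean scaled log2 signal over the 4 control animals (horizontal axis) of each measured marker, by list; blue marks cell types of the colon, orange other tissues or gut segments, open circles markers not well above background on all 4 arrays, black bars the list medians and the dotted line the median of all named genes (-1.49). Smooth muscle (6.06), goblet cells (4.20) and absorptive colonocytes (3.80) have the highest list medians, and liver (-5.77) the lowest.

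Absorptive colonocytes had the longest marker list: 23 of 23 measured markers were well above background on 4 of 4 arrays, and 22 lay above the median gene. AQP8, a water channel of the colonocyte surface, gave 7.44, 7.03, 7.81 and 8.34, with the highest value in control 4. GUCA2A and GUCA2B, the precursors of guanylin and uroguanylin that regulate fluid secretion, had means of 7.32 ± 0.32 and 6.49 ± 0.20, and both were lowest in control 2. FABP1, a fatty acid carrier, had a mean of 7.12 ± 0.23, and the epithelial keratins KRT19 and KRT20 had 7.42 ± 0.15 and 6.36 ± 0.20. CA2 and CA4, carbonic anhydrases that serve bicarbonate handling, gave 5.12, 5.35, 5.42 and 5.58 and 4.01, 4.68, 4.37 and 4.96. SLC26A3, the chloride and bicarbonate exchanger of the apical membrane, gave 4.91, 3.75, 3.90 and 4.35, which is highest in control 1. SLC51A and SLC51B, the subunits of the basolateral bile acid exporter, had means of 3.84 ± 0.32 and 3.29 ± 0.23. The list was lowest in control 2 at 12 of its 23 members, with a median deviation of -0.23 there, while control 2 was the lowest animal at 29.1% of all genes compared.

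Genes of salt transport and of short-chain fatty acid use were measured on nearly all arrays. Of 15 ion transport genes, 13 were found on 4 of 4 arrays, with a list median of -0.71. SCNN1B, the beta subunit of the epithelial sodium channel, gave 3.82, 3.12, 3.30 and 3.56, and the alpha subunit SCNN1A gave 1.38, 0.83, 0.56 and 1.32, while the gamma subunit SCNN1G was well above background on 3 of 4 arrays. BEST2, a bestrophin channel of colonic goblet cells, gave 1.69, 0.54, 1.62 and 1.81, low in control 2 alone. All 8 genes of short-chain fatty acid and ketone metabolism were found on 4 of 4 arrays, with a median of 2.77. SLC16A1, which carries butyrate into the cell, gave 2.44, 2.51, 2.42 and 2.68, and its chaperone BSG had a mean of 3.03 ± 0.26. ACADS, the short-chain acyl-CoA dehydrogenase, had 5.71 ± 0.19. FFAR2 and FFAR3, the receptors for short-chain fatty acids, were dim but well above background on every array, at -1.86 ± 0.20 and -3.82 ± 0.15.

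Most epithelial barrier genes were found in every animal. Of 14 tight junction genes, 13 were found on all arrays, with a median of 1.15 and a median SD of 0.247, close to the 0.253 of all genes found on 4 of 4 arrays. CLDN3, CLDN4 and CLDN7, claudins that seal the space between cells, had means of 6.53 ± 0.22, 5.15 ± 0.39 and 5.78 ± 0.25. CLDN8, a claudin of the distal colon, had 1.17 ± 0.43, while CLDN2, which forms a leaky pore, was well above background in control 4 only. OCLN, the occludin gene, gave 0.69, 0.21, 0.40 and 0.59. All 8 genes of adherens junctions and desmosomes were found on 4 of 4 arrays with a median SD of 0.148, and CDH17, the intestinal cadherin, gave 2.45, 2.41, 2.61 and 2.43.

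Of 9 goblet cell markers 8 were found on 4 of 4 arrays, from dim to among the brightest, with a list median of 4.20. ZG16, a lectin of the mucus that binds bacteria, gave 8.34, 7.92, 7.98 and 8.02, and its second probe gave 8.37, 7.69, 7.90 and 7.79. MUC2, the gel-forming mucin of the colon, gave 4.23, 4.25, 4.23 and 4.09, with -0.19, 0.23, 0.51 and 0.86 at a dimmer second probe, where control 4 was highest. TFF3, a trefoil peptide, had a mean of 5.48 ± 0.21. CLCA1, a secreted component of the mucus, gave 5.97, 5.40, 6.01 and 5.18. ITLN1, a goblet cell lectin, gave 5.40, 4.78, 5.92 and 1.17, a 26.8-fold span with control 4 lowest. RETNLB, a secreted resistin-like protein, gave 1.16, 1.72, 1.88 and 0.87, FCGBP, a mucus protein that binds antibody, gave -0.90, 0.15, 0.47 and -0.055, lowest in control 1, and AGR2, which folds mucins, was the dimmest of those found, at -1.37 ± 0.16. SPINK4 was well above background on none of the arrays. All 12 measured mucin glycosylation genes were found on 4 of 4 arrays, among them GCNT3, which branches mucin sugars, at 5.04 ± 0.30, and ST6GALNAC1, which caps them with sialic acid, at 3.60 ± 0.21.

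Of 10 antimicrobial genes of the surface 8 were found on 4 of 4 arrays, with a median SD of 0.575. PIGR, which carries antibodies across the epithelium, gave 0.45, 0.52, 1.14 and 1.67. DEFB1, a beta-defensin, gave 1.995, 1.65, 2.82 and 2.76, and LCN2, which withholds iron from bacteria, gave 3.22, 2.84, 3.197 and 3.57. The second probe of LCN2 had a mean of -2.65, so its probes disagree on its level. DUOX2, an oxidase that releases hydrogen peroxide at the surface, was above background in 3 of 4 animals, with -5.50, -3.91, -3.17 and -2.40, and its maturation factor DUOXA2 in 1. PLA2G2A, a bactericidal phospholipase that Paneth cells also make, gave 4.42, 6.59, 5.49 and 6.23, which is lowest in control 1.

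Crypt genes were dim but present. Of 10 crypt base and progenitor markers 9 were found on all arrays, against 77.0% of all named genes. Their median of -1.51 was close to that of all named genes. LGR5, the receptor that marks intestinal stem cells, gave -2.55, -2.65, -2.57 and -2.50, an SD of 0.063. ASCL2, a transcription factor of the same cells, gave -1.63, -2.21, -1.67 and -1.32, and SOX9, of crypt progenitors, gave -2.76, -2.45, -1.99 and -2.67. OLFM4, a stem cell marker in other species, was well above background on none of the arrays, as read by its single probe. All 16 genes of DNA replication and mitosis were found on 4 of 4 arrays with a median of 1.52. PCNA, the sliding clamp of DNA polymerase, gave 2.46, 2.16, 2.04 and 2.40, and MCM7, a subunit of the replicative helicase, gave 5.10, 4.51, 4.43 and 4.90. Of 15 members compared, control 3 was the lowest animal at 7 and control 1 at 6, against 23.2% and 29.1% of all genes compared. PLK1, a mitotic kinase, gave 1.53, 2.35, 2.28 and 2.39, lowest in control 1. Its second probe had a mean of -3.76 and was also lowest in control 1. CDK1, the kinase that starts mitosis, gave -1.39, -0.47, -0.93 and -0.62 at one probe. It gave -0.78, -3.13, -1.31 and -1.43 at the other, where control 1 was highest. Of 14 stromal signals to the crypt 13 were found on all arrays, among them GREM1, a BMP antagonist, at 2.11, 1.37, 1.32 and 0.70, and the R-spondins RSPO1, RSPO2 and RSPO3, which sustain WNT signalling, at means of -3.10, -1.51 and -3.81.

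Enteroendocrine markers found included both granule proteins and hormones. Of 13 markers 12 were found on 4 of 4 arrays, against 77.0% of all named genes, with a median of -0.54. CHGA, the chromogranin of hormone granules, gave 5.11, 6.15 and 4.73 in controls 2 to 4, control 1 being an outlier spot, and a second probe gave 2.85, 2.45, 3.92 and 2.52. CHGB, a second chromogranin, gave 1.44, 1.47, 2.81 and 0.998. PYY and GCG, which encode peptide YY and the glucagon-like peptides of the colonic L cell, gave 0.57, 0.60, 1.35 and 0.22 and -1.15, 0.033, -0.27 and -0.75, and SST, the somatostatin gene of D cells, gave 1.79, 1.29, 2.53 and 1.27. TPH1, which makes serotonin, gave 0.71, 0.90, 0.83 and 0.13, and its second probe had a mean of -4.64. INSL5, a hormone of the distal gut, gave -3.76, -1.45, -2.29 and -2.71. NTS, the neurotensin gene of the ileum, was well above background on none of the arrays. The hormone genes GIP and MLN of the same list were found on 4 of 4 arrays, with means of -2.86 and -2.62, against -2.55 for INSL5. Of 11 members compared, control 2 was highest at 6, among them GCG, INSL5 and TPH1, control 3 was highest at 5, among them CHGB, PYY and SST, and control 4 was lowest at 7. Over all genes compared these shares were 17.3%, 23.7% and 18.6%. All 7 tuft cell markers were found on 4 of 4 arrays, but the list median was -1.80 and only 2 of the 7 lay above the median gene. TRPM5, their taste channel, had a mean of 0.60 ± 0.34 and POU2F3, their lineage factor, -4.41 ± 0.52. The BEST4 cell markers CA7 and BEST4 had means of 2.57 ± 0.28 and -1.89 ± 0.42.

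The muscle wall gave the highest list median of any cell type. All 8 smooth muscle markers were found on 4 of 4 arrays. DES, the intermediate filament of muscle, gave 8.22, 7.98, 7.68 and 7.61, MYLK, the kinase that triggers contraction, gave 6.64, 6.44, 6.15 and 5.95, and TPM2, a tropomyosin, gave 7.52, 6.64, 6.48 and 6.27. The second probe of MYLK had a mean of 2.26. KIT, the receptor of the pacemaker interstitial cells of Cajal and of mast cells, gave 1.06, 0.79, 1.07 and 0.44. Its second probe had a mean of -5.10 and was well above background on 2 arrays, so its probes disagree on its level. Fibroblast genes were all found on 4 of 4 arrays, with COL3A1, a fibrillar collagen, at 7.74, 6.44, 6.36 and 6.65 and DCN, a matrix proteoglycan, at 4.52, 4.05, 3.85 and 3.38. All 6 blood endothelium markers were found on 4 of 4 arrays, with a list median of -1.91, VWF at 0.66 ± 0.28 and PECAM1 at 0.14 ± 0.32. Of 5 lymphatic endothelium markers 4 were, with a list median of -2.97 and LYVE1 at 1.002 ± 0.51. Over all named genes the share was 77.0%.

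The nervous system of the gut was seen in part. Of 11 enteric neuron markers 7 were found on all arrays and 2, RET and CHAT, on none. VIP, which relaxes gut muscle, gave 0.44, 0.17, 0.69 and -0.53, and TAC1, the precursor of the excitatory peptide substance P, gave 1.54, 1.21, 0.68 and -0.40, lowest in control 4. PRPH, a filament of peripheral neurons, gave 1.46, 1.94, 1.59 and 1.14, and its second probe had a mean of -3.58. Of 6 glial markers 4 were found on all arrays, among them S100B at 0.85 ± 0.39, and GFAP and FABP7 on none. The adipocyte gene ADIPOQ had a mean of -1.36 ± 0.59, and the mesothelial gene UPK3B, of the outer lining, had 1.13 ± 0.21. Of the 4 measured red blood cell markers all were lowest in control 2, among them HBA, the alpha globin gene, with 7.62, 7.03, 7.998 and 7.91. The second probe of HBA had a mean of 2.34 and was also lowest in control 2. Over all genes compared, control 2 was lowest at 29.1%.

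Markers of lymphocytes and plasma cells were found in every animal. Of 11 T lymphocyte markers 8 were found on all arrays, with a median of -0.24 and a median SD of 0.665, against a median SD of 0.235 for absorptive colonocytes. CD3E, part of the T cell receptor complex, gave -0.37, 0.93, 1.16 and 1.11, and CD8A, the co-receptor of cytotoxic T cells, gave -0.89, 0.58, 0.0069 and -0.65. All 9 cytotoxic lymphocyte markers were found on 4 of 4 arrays, with GZMB, the granzyme that kills target cells, at 3.62, 5.70, 4.35 and 3.47 and 4.04, 5.25, 3.99 and 3.30 at its second probe, so that control 2 was highest at both. All 9 plasma cell markers were found on 4 of 4 arrays, and the median SD was 0.413 for this list and 0.422 for the cytotoxic one, against 0.413 for goblet cells and 0.527 for enteroendocrine cells. JCHAIN, the joining chain of secretory antibodies, gave 3.15, 5.07, 4.82 and 3.60, and MZB1, a chaperone of antibody secretion, gave 1.55, 2.68, 2.30 and 2.18, both lowest in control 1. Of 9 B lymphocyte markers 5 were found on all arrays, with a median of -2.92.

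Myeloid cells were read mainly as macrophages. Of 10 macrophage markers 9 were found on all arrays, with a median of 0.999. C1QA and C1QC, complement genes of tissue macrophages, had means of 5.67 ± 0.30 and 4.32 ± 0.29, and CD68 had 1.61 ± 0.19. The second probes of C1QC and CD68 had means of -0.22 and -0.77. Of 9 dendritic cell markers 4 were found on all arrays, with a median of -4.80, among them IRF8 at 0.21, 0.56, 1.01 and 0.90 and CLEC9A, of the cross-presenting subset, at -3.82, -2.29, -2.50 and -2.70. Of 6 neutrophil markers 4 were found on all arrays and MPO on none, with a median of -2.63, and the mast cell protease CPA3 had a mean of -0.40 ± 0.34.

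Cytokine and chemokine genes were mostly dim in these animals, with a list median of -3.51, though 7 of 21 lay above the median gene. Of 21 cytokine and chemokine genes 11 were found on all arrays and 2, IL17A and IL22, on none. At the probe that stands for each gene, IL1B was well above background in 3 of 4 animals, CXCL8 and IFNG in 2, and IL1A in 1, and a dimmer probe of CXCL8 was so in 3. TNF gave -1.64, -1.92, -1.01 and -0.55 at its brightest probe, a mean of -1.28 that lay above the median gene at -1.49. Its other probe gave -5.88, -5.93, -5.26 and -4.67 and was well above background on 1 array, so its probes disagree on its level. IL6 gave -1.58, -4.89, -4.09 and -3.49, highest in control 1. CXCL12, a constitutive stromal chemokine, had a mean of 1.99 ± 0.35. Innate receptors were found on all arrays at 13 of 15 genes, with a median of -2.73, and NOD1 and TLR4 had means of 1.47 ± 0.29 and -1.59 ± 0.23. The other probes of NOD1 had means of -4.45 and -5.71, so its probes disagree on its level. The antigen presentation genes were all found on 4 of 4 arrays with a median of 3.62. B2M, the light chain of MHC class I, gave 7.06, 8.17, 8.04 and 7.55, MAMU-A, a macaque class I heavy chain, gave 4.90, 6.47, 5.79 and 5.84, and the class II genes CD74 and MAMU-DRA had means of 3.13 ± 0.27 and 2.67 ± 0.39. Macaque class I and class II genes are near-identical copies that differ between animals, so that a probe may read several of them or miss an allele.

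Markers of neighbouring gut segments and of other organs ranged from below background to bright. Of 13 small intestinal enterocyte genes 7 were found on all arrays and 4, FABP2, MTTP, TREH and GATA4, on none. SLC10A2, the ileal bile acid transporter, gave -0.69, -1.43, -2.35 and -1.99, and SLC5A1, the glucose transporter of the small intestine, had a mean of -3.80 ± 0.47. Of 3 Paneth cell genes PLA2G2A was found on all arrays, as above, the defensin DEFA6 on 3, with -3.42, -4.96, -5.82 and -2.93, and MMP7 on none. Of 8 stomach genes 5 were found on all arrays and GKN1 and ATP4B on none, while ATP4A, a subunit of the gastric proton pump, gave 7.64, 6.06, 6.34 and 6.72 at one probe and -7.19 as the mean of the other, so its probes disagree. TFF2, a trefoil peptide of gastric mucus, gave 1.65, 1.88, 1.34 and 2.38. Of 9 liver genes 2 were found on all arrays, and ALB, serum albumin, in 1 animal. KRT14, a keratin of squamous epithelium, had a mean of 1.70 ± 0.33, and of 7 squamous markers 2 were found on all arrays, 3 on some and 2, DSG3 and SPRR3, on none.

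Metabolic genes were well above background for the most part. All 14 oxidative phosphorylation genes were found on 4 of 4 arrays with a median of 5.29, among them COX4I1 at 7.56 ± 0.38 and ATP5F1B at 7.13 ± 0.064. Of 18 xenobiotic genes 16 were found on all arrays, with UGT1A1, which conjugates bilirubin, at 3.48 ± 0.35, CYP3A4, the main drug-oxidising enzyme, at 1.41 ± 0.089 and the efflux pump ABCB1 at 2.75 ± 0.21. CYP1A1, an enzyme induced through the aryl hydrocarbon receptor, gave 3.11, 1.38, -0.63 and 2.42, a 13.4-fold span between the animals, and its second probe gave -1.21, -2.41, -4.28 and -1.81 in the same order. The receptor gene AHR gave -2.09, -2.65, -2.10 and -2.11. Of 12 nuclear receptors 11 were found on all arrays, among them the bile acid receptor NR1H4 at 0.81 ± 0.43, the vitamin D receptor VDR at 0.08 ± 0.16 and PPARG at 1.93 ± 0.22.

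The animals differed little at most genes. Among the 11155 genes found on 4 of 4 arrays the median SD was 0.253, which is 1.19-fold, with quartiles of 0.168 and 0.370. Of these genes 1701 (15.2%) spanned over 2-fold between the highest and the lowest animal and 42 (0.377%) over 8-fold. At 28 probes printed in 5 spots each and well above background on every array, the median SD between single spots of one array was 0.160, and the median SD between animals, taken on the mean of the 5 spots, was 0.177. At 3546 genes with 2 or more probes on 4 of 4 arrays, the animals' deviations at the brightest and the second probe correlated across genes with r between 0.34 and 0.39 on each array, and between 0.52 and 0.57 in the tenth of these genes with the largest SD. Genes are not independent replicates, and probes of 1 gene share its array. Control 1 was the highest animal at 32.4% of 12096 genes and the lowest at 29.1%, against 17.3% and 29.1% for control 2, 23.7% and 23.2% for control 3, and 26.6% and 18.6% for control 4.

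Among the gene lists with 5 or more members compared, the B lymphocyte, dendritic cell and T lymphocyte lists differed most between the animals. The B lymphocyte list had median deviations from the 4-animal mean of -1.19, -0.27, 0.29 and 1.42 in controls 1 to 4, the dendritic cell list -0.95, 0.12, -0.19 and 0.53, and the T lymphocyte list -0.83, 0.58, 0.23 and 0.12. In these lists 5 of 9, 4 of 9 and 8 of 11 measured members were well above background on all arrays. Compared members found on fewer arrays passed the filter through the animals where they were high. Absorptive colonocytes, tight junctions and oxidative phosphorylation had median deviations between -0.23 and 0.15 in every animal. Among 42 lists with 5 or more members compared, the highest animal was the same for 42 under quantile normalization, 33 with the median over probes, 32 with normexp background correction, 28 with scaling to spike-in RNA, 42 with the deposited table of raw intensities and 21 with no scaling, where the median gene of control 1 moved by -0.29 and those of controls 2 and 3 by 0.15 and 0.13.

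**Figure D4:**
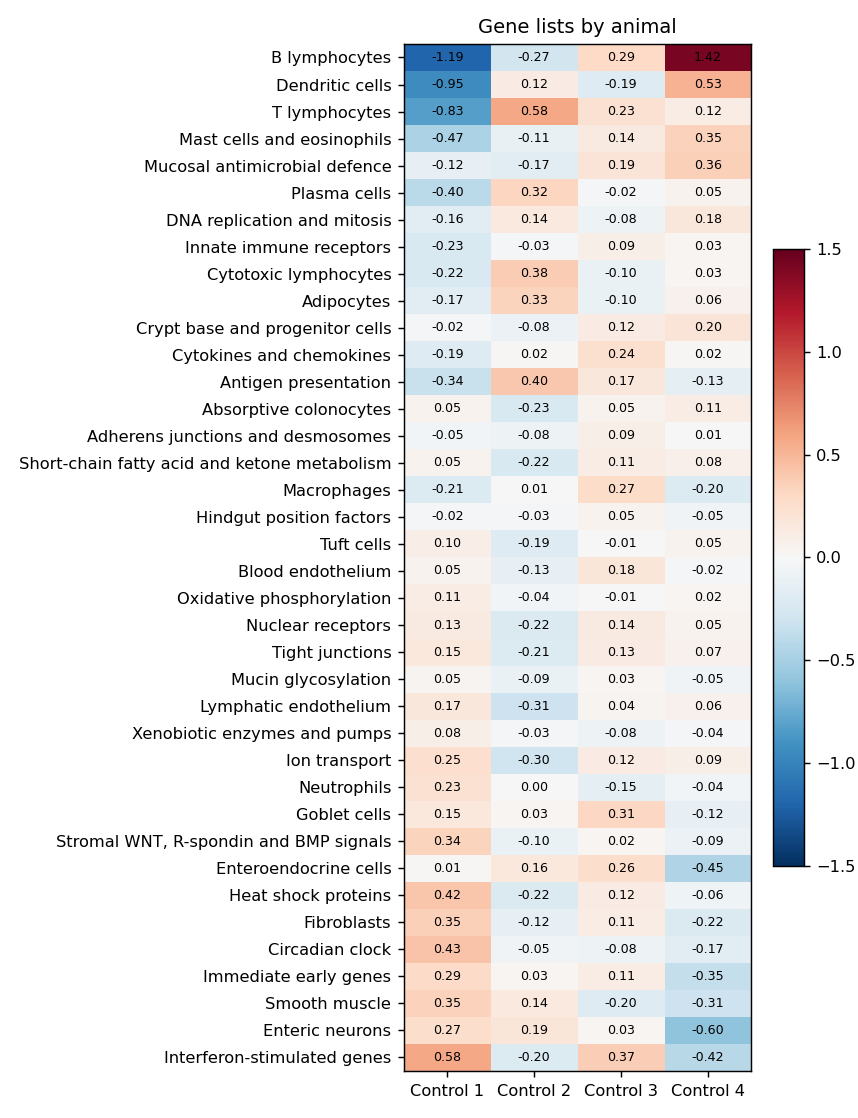
Median deviation of the members of each gene list from their 4-animal mean (log2, colour and printed value) in controls 1 to 4, for colon cell types and functions with 5 or more members compared. The B lymphocyte list runs from -1.19 in control 1 to 1.42 in control 4 and keeps these extremes under all 6 alternatives, while the interferon, heat shock, fibroblast and smooth muscle lists have another highest animal with no scaling between arrays.

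B lymphocyte genes were highest in control 4 and lowest in control 1. Control 4 was the highest animal at 8 of 9 members and control 1 the lowest at 6, and both were the extremes under all 6 alternatives. Over all genes compared, control 4 was highest at 26.6% and control 1 lowest at 29.1%. Only 5 of the 9 members were well above background on all arrays, and the other 4 passed the filter through the animals where they were high. CR2, the complement receptor of B cells and follicular dendritic cells, gave -6.695, -3.30, -0.96 and 1.07, with control 1 not well above background, and a second probe gave -6.60, -4.11, -4.69 and -3.18. CD79B, which signals from the B cell receptor, gave -0.56, 0.19, 0.35 and 1.89, a 5.46-fold span, with -4.34, -2.61, -2.40 and -0.43 at its second probe. MS4A1, which encodes CD20, was well above background in controls 3 and 4 only. Some chemokine genes, described here after their values were seen, had the same lowest and highest animals. CXCL13, which attracts B cells into follicles, gave -6.57, -4.87, -3.43 and -1.92 and, at its second probe, -7.31, -5.66, -3.89 and -2.39. At the first probe control 1 was not well above background, and the second probe was well above background on 2 arrays only. The gene thus passed the filter through the animals where it was high. CCL19, which attracts T cells and dendritic cells, gave -2.26, 0.22, 0.046 and 1.07, and its receptor CCR7 gave -3.10, -1.02, -0.79 and 0.34, spans of 10.1-fold and 10.9-fold with control 1 lowest and control 4 highest at both. The second probe of CCR7 had a mean of -5.37 and was well above background on 1 array. CCL21, a second ligand of CCR7, was also highest in control 4 but lowest in controls 2 and 3, with 0.83, 0.25, 0.24 and 1.32.

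T lymphocyte genes were lowest in control 1 at 9 of 10 members and highest in control 2 at 7. Over all genes compared these shares were 29.1% and 17.3%, and the list's extremes were kept under all 6 alternatives. CD3D, part of the T cell receptor complex, gave -0.017, 2.02, 1.91 and 1.90, so that control 1 stood apart from the other animals. LCK, the kinase of that receptor, gave 0.20, 1.42, 0.83 and 1.56 and -1.88, -0.23, -0.96 and -0.79 at its second probe. CD4, a gene that macrophages also express, was the exception at its brightest probe, with 4.13, 3.22, 3.59 and 3.62 and control 1 highest. Its dimmer second probe gave -3.63, -2.99, -2.68 and -3.65, with control 3 highest, so its probes disagree on the order. KLRD1, a receptor of natural killer cells, gave -2.75, -1.03, -2.43 and -3.10, with control 2 highest. Antigen presentation genes moved with the same animals, highest in control 2 at 8 of 14 members and lowest in control 1 at 9, again under all 6 alternatives. MAMU-E, a class I gene, gave 4.44, 5.80, 5.24 and 5.02, and TAP1, which loads peptides, gave 3.39, 4.57, 4.58 and 3.89. Plasma cell genes were lowest in control 1 at 6 of 9 members under all alternatives.

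**Figure D5:**
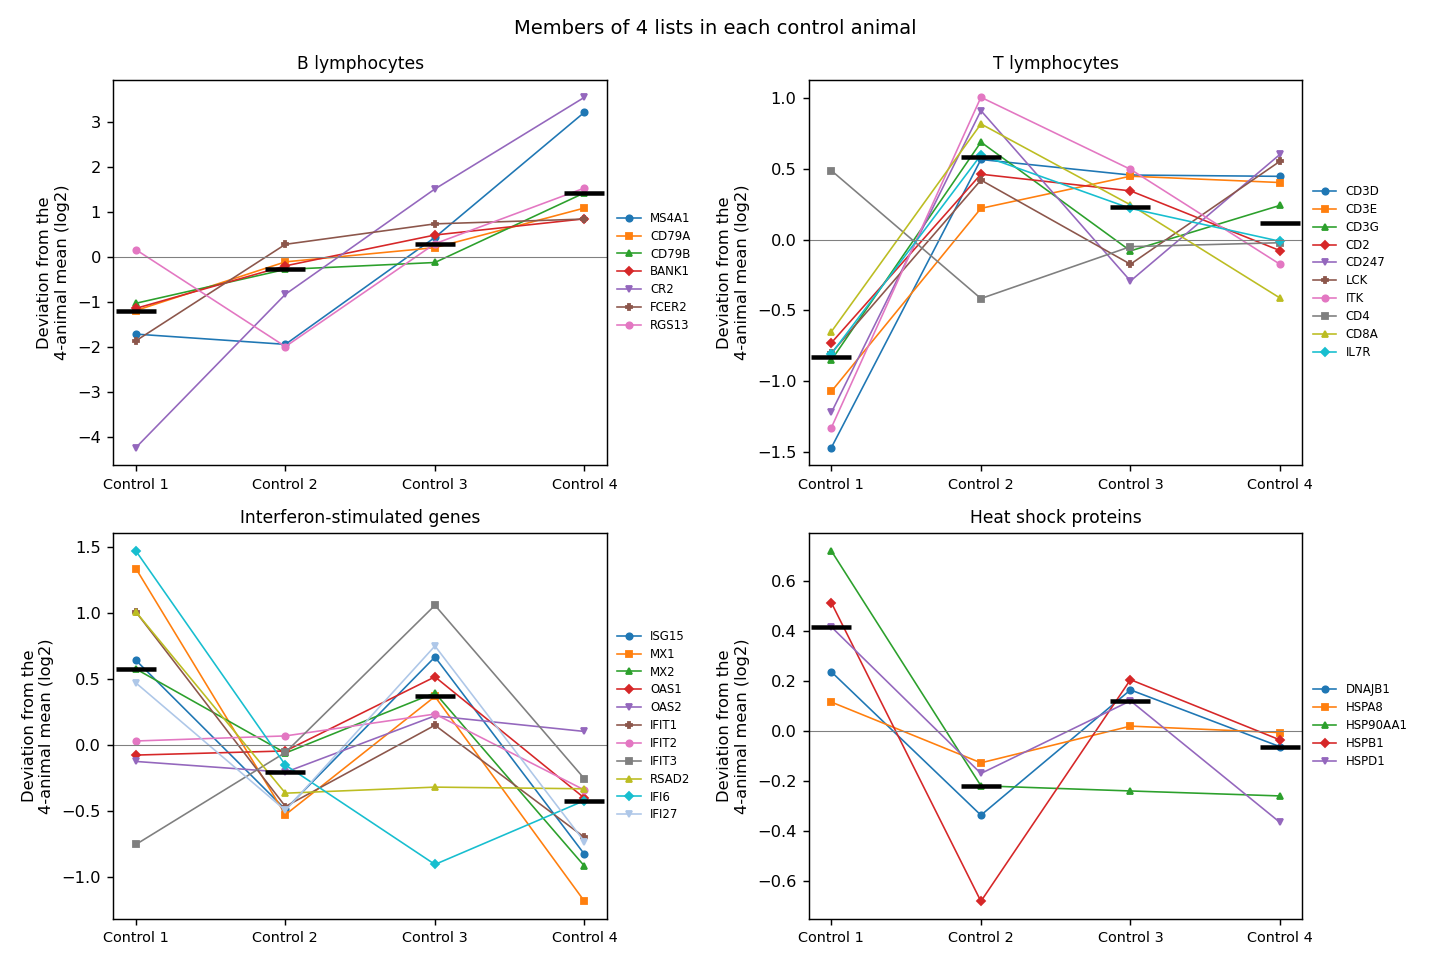
Deviation of each member from its 4-animal mean (log2, vertical axis) in controls 1 to 4 for B lymphocytes, T lymphocytes, interferon-stimulated genes and heat shock proteins; lines join the values of one gene, drawn for 7 of the 9 B lymphocyte members and all of the others, and black bars are the medians over all members. B lymphocyte genes are lowest in control 1 at 6 of 9 members and highest in control 4 at 8. For all genes compared these shares are 29.1% and 26.6%. The interferon and heat shock lists are highest in control 1 except with no scaling between arrays, where control 3 is highest.

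Interferon-stimulated and stress genes had a different order. Over all genes compared, control 1 was highest at 32.4% and control 3 at 23.7%, and control 4 was lowest at 18.6%. Of 11 interferon-stimulated genes control 1 was highest at 5 and control 3 at 6, and control 4 was lowest at 7 and under all 6 alternatives; the highest animal by list median was control 1, but control 3 with no scaling. MX1, an antiviral GTPase, gave 3.26, 1.39, 2.29 and 0.73 and -0.34, -1.39, -0.83 and -1.62 at its second probe, and ISG15, a ubiquitin-like modifier, gave 3.77, 2.64, 3.80 and 2.30. All 5 heat shock genes compared were highest in control 1, with the list median highest in control 3 when no scaling was applied. HSP90AA1, a chaperone, gave 5.99, 5.05, 5.03 and 5.01, and 3 of its other probes also gave their highest value in control 1, the fourth having no value there. Immediate early genes were lowest in control 4 at 8 of 12 members and under all alternatives, and ATF3, a stress-induced transcription factor, gave 3.51, 3.16, 2.64 and 1.90. The other probes of ATF3 had means of -1.69, -3.65 and -4.85. Circadian clock genes were highest in control 1 at 8 of 12 and lowest in control 4 at 7, under all 6 alternatives: TEF, a clock output factor, gave 1.98, 0.83, 0.42 and -0.035, PER1, which closes the clock's feedback loop, gave 2.64, 2.08, 2.14 and 1.35, and ARNTL, its activator, ran the other way with 0.61, 1.26, 1.46 and 1.53.

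Smooth muscle and enteric neuron genes were lowest in control 4. Over all genes compared, that animal was lowest at 18.6%. Smooth muscle genes were lowest there at 5 of 7 members and enteric neuron genes at 7 of 8, under all 6 alternatives, and enteroendocrine genes at 7 of 11, also under all 6. Fibroblast genes were lowest there at 4 of 9 members and enteric glia genes at 1 of 4. The highest animal was less stable: for smooth muscle and neurons it was control 1, but control 2 with spike-in scaling or no scaling, and for enteroendocrine genes control 3, but control 2 with spike-in scaling. TAC1 was lowest in control 4 at each of its 4 probes, with 0.075, -0.10, -1.31 and -1.51 at the second. Fibroblast genes had their highest list median in control 1, but in control 3 with no scaling or with the median over probes. Whether the share of muscle wall, mucosa or lymphoid tissue in each piece of colon differed was not tested.

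Among single genes found on 4 of 4 arrays, the 2 with the largest SD were the Y-linked RPS4Y2 and EIF1AY. The others mostly had 1 animal apart from 3, and many were not tissue genes of the colon. FEZF2, a forebrain transcription factor, gave 1.56, -3.44, -4.81 and -3.38, SLC22A13, a urate transporter, gave -4.84, 0.14, -4.66 and -4.07, CGNL1, a junction protein, gave -3.94, 0.64, -4.39 and -3.69, and RAD54L, a DNA repair factor, gave -3.60, 1.04, -3.50 and -3.09, each with a single probe. ACTC1, the cardiac actin gene, gave -2.14, 3.07, -0.90 and -0.99, a 37.1-fold span with control 2 highest. CXCL9, a chemokine induced by interferon gamma, gave -4.91, -0.65, -1.81 and -2.71, with control 2 highest, and LILRB4, an inhibitory receptor of myeloid cells, gave -4.44, -0.43, -2.59 and -1.56, with the same animal highest and control 1 lowest. The uncharacterised C9H10orf68, the olfactory receptor gene OR56A1 and the small membrane protein gene SMIM32 each had 1 animal high, respectively control 2 at 0.75, control 1 at -0.82 and control 3 at -0.84.

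Where a second probe could be read, it showed the same animals for some of these genes and not for others. PADI2, which converts arginine to citrulline in proteins, gave -0.49, 3.19, 2.55 and 3.17 and -4.75, -0.82, -1.78 and -1.10, with control 1 lowest at both. NKAIN4, a partner of the sodium pump, gave 2.04, -1.89, 0.53 and -1.46 and -0.68, -3.71, -1.48 and -2.35, with controls 1 and 3 high at both. MNP2, a macaque alpha-defensin, gave -2.08, -3.63, -5.22 and -0.92, and its other probes also had controls 1 and 4 highest. FBXO34, an F-box protein, gave 2.29, -2.04, -2.21 and -1.89, but its second probe gave -2.37, -1.60, -1.73 and -1.95, and SRMS, a tyrosine kinase, gave -1.64, -1.29, -1.69 and 2.47, but -5.37, -5.05, -5.94 and -5.49 at the second. CEBPB, a transcription factor of inflammation and metabolism, gave -3.52, -0.48, -4.11 and -3.62 with control 2 apart, a gap that its 2 other probes, with SDs of 0.31 and 0.30, did not show. KLRC1, a receptor of natural killer cells, gave -5.15, -1.24, -4.21 and -4.29 and -4.68, -3.59, -5.86 and -3.95, with control 2 highest at both. At the other end, SON, RPF1, TTC9C, GPAT3 and PON2 had the smallest SDs among genes brighter than the median of those found on 4 of 4 arrays, with SDs between 0.013 and 0.018. Dimmer probes did not show so small a spread, with SDs of 0.73 for SON and 0.45 and 0.38 for TTC9C. RPF1, GPAT3 and PON2 had a single probe each.

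Scan day was the only factor that could be tested within the controls. In limma, 4 of 33227 probes (0.0120%) differed between the 2 days by 2-fold or more with a Benjamini-Hochberg adjusted p below 0.05, 1 higher on the second day and 3 lower. RPS4Y2 was lower on the second day by a log2 difference of -8.45 (SE 0.24, adjusted p = 0.0107 in limma), from 5.23 to -3.22, and EIF1AY by -6.85 (SE 0.23, adjusted p = 0.0136 in limma). The other 2 called probes were well above background on 2 arrays only and entered the test through the days on which they were high, so their values are given as a description. A probe with no gene name gave 0.21, 0.32, -7.72 and -8.42. The probe higher on the second day, described as a macaque MHC class II DQA transcript, gave -7.02, -7.46, -1.47 and -1.62. With no filter on dim probes limma called 3 probes, all lower on the second day, so that the MHC probe was no longer called. MHC genes differ between individual macaques, and probes described as MHC made up 6 of the 100 probes with the largest SD against 0.508% of the 33244 probes found on 2 or more arrays. Within scan days the median SD over the genes found on 4 of 4 arrays was 0.241 against 0.253 over all 4 animals. With any 1 of the 4 arrays left out, limma called 0 probes, and between 949 and 3641 had an unadjusted p under 0.05, against 1367 with all 4. With 2 arrays a day, and with scan day, slide and animal varying together, what separates the pairs cannot be told apart.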

How the data were processed

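Total RNA of whole colon from the 4 control animals was labelled with Cy3 and hybridised by the authors to one-colour Agilent rhesus arrays. Per the file headers, the intensities were extracted with Feature Extraction 11.0.1.1, which subtracts the local background, on a probe layout built on rheMac2. The deposited scanner files hold each spot's processed signal, an intensity not normalized between arrays, and flags for spots well above background, outliers and saturation. The authors' deposited table of raw intensities was used as an alternative, and the irradiated arrays and the authors' normalized log2 table were not used.

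Each array has 45220 spots, and the 43803 that are not controls carry 43603 probes. Spots with an outlier flag, 80 to 140 on each array, were treated as missing, and the spots of a repeated probe were averaged. The 75th percentile of log2 intensity was subtracted from each array, the normalization the methods name. Names came from the array design and from RefSeq tables by gene number or accession, leaving 19845 probes unnamed and 1850 with only a LOC number. The brightest probe stood for a gene, and a gene was called found on none only if all its probes were not well above background. A list member was compared between animals where at least 2 arrays had it well above background and all 4 values existed.

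Scan day was tested with limma 3.58.1 under R 4.3.3 (lmFit and eBayes, two-sided, Benjamini-Hochberg over the probes found above background on 2 or more arrays), and the procedure was tested on simulated data. Everything else is description with no test. Nothing says how the 4 samples relate beyond being separate animals, and their number limits the precision of every value.

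The text names the 20 genes with the brightest probes, the 20 with the largest and the 5 with the smallest SD, and, in 56 lists of marker and pathway genes, up to 5 members by level, 3 by SD and 5 found on none; other list members were added for their role, and some genes that the rule names are not reported here. The members and lists were chosen with earlier results of these data known. Of 632 listed genes 513 were measured.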

Additional observations from a re-analysis of the deposited data

Results flagged for a closer look

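For each gene named in the text, GIP and MLN apart, the gap between the highest or lowest animal and its nearest neighbour was divided by the range of the 4 animals. The ratio passed its 95% critical value at 20 of 213 genes with 4 values (9.39%). Chance flags about 1 group in 20, and genes named for a large spread are included, so the count is not read further. Control 1 stood apart at FBXO34 (0.9292, high), OR56A1 (0.8439, high), HSP90AA1 (0.9586, high) and MYH7 (0.8307, high), and at CD3D (0.9415), CD3E (0.8506) and PLK1 (0.8741), where it was low. Control 2 stood apart on the high side at C9H10orf68 (0.9007), RAD54L (0.8908), CGNL1 (0.8597), SLC22A13 (0.8448) and CEBPB (0.8376), and on the low side at AHR (0.9606) and BEST2 (0.8485). Control 3 was high at SMIM32 (0.8378). Control 4 was high at SRMS (0.9026), and low at MUC2 (0.8746), where its distance of -0.14 from the median of the other animals is a small difference. The genes FABP7 (0.8585), RET (0.8523) and IL22 (0.8426) also had control 4 apart, but none of them was well above background on any array.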

How the results depend on the processing

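No paired analysis was possible because a single group was used and its replicate numbers pair no samples. The deposited raw table, the values within scan day, the pairs of controls left out together and the spike-in and unscaled gene lists were chosen after seeing the data. Genes found on none of the 4 arrays numbered 1550, but 2486 when the lowest probe stood for a gene and 505 with the software's looser detection flag, and 1610 to 1986 without 1 array. Genes found on all arrays numbered 11155, with 9693 and 12556 under these alternatives and 11177 to 11603 without 1 array. Of the 20 brightest genes 10 were still among the 20 brightest by the median over probes, 17 with normexp, 20 with quantile normalization, no scaling or the raw table, and 19 to 20 without 1 array. The median SD of 0.253 lay between 0.229 and 0.299 under the other settings over all animals, at 0.209 to 0.246 without 1 array, at 0.217 without controls 3 and 4 and at 0.170 without controls 1 and 2. The highest animal was the same for 21 of 42 lists with no scaling. The 4 probes that limma called for scan day became 7 with normexp and 583 at an unadjusted p with a 2-fold difference, and 0 to 0 without 1 array, where a lone array is assumed to vary like the other pair. The cause of these shifts was not tested. Among list medians, 22 of 42 moved by more than the median SD of their members with the median over probes and 10 with normexp. Among the 215 genes named in the text, GIP and MLN apart, 65 and 76 levels moved by more than their SD. Signals near background, below about -5, carry little information on order.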

Other observations

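The share of markers found on all arrays varied widely between the lists of organs that colon does not hold. Of 6 exocrine pancreas genes 3 were found on all arrays, and PNLIP, the pancreatic lipase, was found on none. Among the 3 was CTRB2, a chymotrypsinogen, with 1.75, 1.995, 1.70 and 1.61 in controls 1 to 4 at its brightest probe. Its other probe had a mean of -7.53 and was well above background on none of the arrays, so its probes disagree. Of 6 striated muscle genes 5 were found on all arrays, with MYH7, a heavy chain of slow and cardiac muscle myosin, at -1.45, -3.14, -3.03 and -2.85, so that control 1 was highest. Of 4 male germ cell genes 3 were found on all arrays, and DDX4, the germ cell RNA helicase, on none. Of 5 kidney genes 1, and of 5 lung genes 2, were found on all arrays, while the surfactant genes SFTPB and SFTPD were found on none. None of the 5 retina genes was found on all arrays.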
